A study of Mus musculus with 6 samples.

Results

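The clustered histone genes are the genes whose symbols in the deposited feature list begin with Hist1h, Hist2h, Hist3h or Hist4h. The rule found 67 of 32285 features: 6 linker histones H1, 18 genes for H2A, 18 for H2B, 12 for H3 and 13 for H4. The rule reads symbols and no measured value. Single-cell RNA-seq measured them in bone marrow cells of 2-month-old C57Bl/6 mice, all taken through magnetic selection for the myeloid surface protein CD11b. The femur group held 3 libraries, 1 from a female and 2 from males, and the mandible group held 3 libraries, all from males, so sex and site were partly mixed. Per the labels the long-bone marrow came from femurs and tibiae, while the study's methods name the femur alone, and the mandibular marrow was flushed after the molars were removed. In the library names femur replicate 2 and mandible replicate 1 share the number 6, and femur replicate 3 and mandible replicate 2 the number 7, but the labels do not say whether a number marks a shared animal or day. After the authors' filter 69776 cells were left, with 82962160 to 244946998 unique molecular identifiers (UMIs, counted mRNA molecules) per library.

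The core histones H2A, H2B, H3 and H4 form the protein spool around which DNA is wound, and H1 binds where the DNA enters and leaves it. A cell that copies its DNA must double its histones, and the clustered genes supply them: they are switched on in S phase, lie in gene arrays and mostly make short mRNAs without introns. Most of these mRNAs end in a hairpin in place of a poly(A) tail. The hairpin is bound by the stem-loop binding protein Slbp, and the mRNAs are broken down when DNA replication ends. Variant histones such as H3.3 are made from genes elsewhere, in and out of S phase, from mRNAs with a poly(A) tail. In marrow the dividing neutrophil precursors give rise to neutrophils that no longer divide.

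In mm10, with the gene annotation of GENCODE vM21, 54 of the genes lay on chromosome 13 (chr13:21715763-23934851), 10 on chromosome 3 (chr3:96219865-96270132), 2 on chromosome 11 (chr11:58948920-58956830) and Hist4h4 alone on chromosome 6 (chr6:136801553-136804415). Annotated transcripts of 5 genes had more than 1 exon. In 46 genes a hairpin with a stem of 6 bases and a loop of 4 followed the coding part, at a distance of 24 to 61 bases with a median of 34. The other 21 showed none, among them 13 genes whose annotated transcripts stop at the stop codon. The transcripts of Hist1h2af and Hist1h2ah end 4 and 5 bases past the coding part. Those of Hist1h1a and Hist2h3b break off after a first stem GGCTCT, before the hairpin is complete. For all these genes no match says nothing of their true ends. The 46 genes shared 8 hairpin sequences. The stem GGCTCT was found in genes of H1, H2A, H2B and H3 and in no H4 gene. The 3 most common sequences are shown because they show this split by class, with the stems in capitals around the loop in lower case. The first was found in 26 genes of H1, H2A, H2B and H3, the second in 7 genes, all H4, and the third in 6 genes.

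Hairpin of 26 genes: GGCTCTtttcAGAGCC

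Hairpin of 7 H4 genes: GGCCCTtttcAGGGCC

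Hairpin of 6 genes: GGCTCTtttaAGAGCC

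The assay primed cDNA at poly(A), so the 3' end of each mRNA bears on its count. A poly(A) signal, AATAAA or ATTAAA, stood in the last 40 bases of a transcript of 17 genes. The last 30 bases of 4 annotated transcripts show the kinds of end: Hist1h2ap with a hairpin next to its end, Hist1h1c and Hist1h4i with a poly(A) signal, and Hist1h1b, whose model stops at the stop codon. The capitals mark the hairpin in Hist1h2ap and the poly(A) signal in Hist1h1c and Hist1h4i.

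Hist1h2ap: aaaaaaaaaaaGGCTCTTTTCAGAGCCatc

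Hist1h1c: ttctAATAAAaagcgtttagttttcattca

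Hist1h4i: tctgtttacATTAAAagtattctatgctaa

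Hist1h1b: gccaagaaggctgtttccaaaaagaagtag

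RefSeq promoters of GRCm38.p6, 300 bases around each start, were matched to 60 of the 67 genes. The TATA box TATAAA, searched on both strands like the other motifs, was found in 34 of the 60 (56.7%) against 15.7% of 27025 genes with a promoter. Each of the 60 was read at the single promoter nearest its start. In the 27025 a match in any promoter of a gene counted, so the shares are not on a like measure. The CCAAT box was found in 51 (85.0%) against 41.1% of the 27025 genes. It stood in each matched promoter of H1, H2A, H2B and H3 but in 3 of 12 of H4. The octamer ATTTGCAT was found in 13 (21.7%) against 1.97%, 7 of them H2A and 6 H2B. The H1 box AAACACA was found in 4 of 5 matched H1 promoters and in 8 of the 60 (13.3%), against 8.22%. None of these motifs contains another, and a match is a description, not a bound site. The 180 bases before the start are shown for 1 gene each of H1, H2B, H3 and H4, and for no H2A gene. A further H1 gene, Hist1h1c, is shown because its levels differed from those of Hist1h1b. These motifs are in capitals, on either strand, so that ATTGG is a CCAAT box read from the other strand. The stretches shown lay at chr13:21780626-21780805 (minus strand), chr13:23738627-23738806, chr13:23746554-23746733, chr13:23752165-23752344 and chr13:23581388-23581567 (plus strand).

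Hist1h1b: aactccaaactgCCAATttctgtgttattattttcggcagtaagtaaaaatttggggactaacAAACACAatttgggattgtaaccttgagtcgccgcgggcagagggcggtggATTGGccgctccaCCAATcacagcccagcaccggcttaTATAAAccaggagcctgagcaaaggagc

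Hist1h1c: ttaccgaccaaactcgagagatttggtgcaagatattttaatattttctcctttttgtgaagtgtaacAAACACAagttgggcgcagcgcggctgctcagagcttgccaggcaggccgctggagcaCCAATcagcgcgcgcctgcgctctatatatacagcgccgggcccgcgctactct

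Hist1h2bb: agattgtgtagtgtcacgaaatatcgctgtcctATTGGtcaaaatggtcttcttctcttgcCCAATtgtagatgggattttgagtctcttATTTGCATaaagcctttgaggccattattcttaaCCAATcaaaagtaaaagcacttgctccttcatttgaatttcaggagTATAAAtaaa

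Hist1h3b: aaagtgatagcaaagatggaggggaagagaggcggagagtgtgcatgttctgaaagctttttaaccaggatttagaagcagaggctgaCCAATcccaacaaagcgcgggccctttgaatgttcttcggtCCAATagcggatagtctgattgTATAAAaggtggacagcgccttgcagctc

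Hist1h4d: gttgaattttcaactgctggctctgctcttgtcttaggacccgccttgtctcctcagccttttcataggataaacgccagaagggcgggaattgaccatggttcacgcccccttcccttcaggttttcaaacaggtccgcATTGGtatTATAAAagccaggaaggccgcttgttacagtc

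Each of the 67 genes had at least 1 UMI, and together they held 1773154. Hist1h2ap, an H2A gene, supplied 22.4% of these UMIs, and the 10 highest genes supplied 72.9%. Only 5 genes had fewer than 50 UMIs: Hist1h2ba with 2, Hist1h2aa with 11 and Hist1h1t with 32, all known from testis, and Hist2h2aa2 with 36 and Hist1h2bq with 38. The last 30 annotated bases of Hist2h2aa2 are also those of Hist2h2aa1, which had 30105 UMIs. A transcript of Hist1h2bq likewise shares its last 30 bases with one of Hist1h2br, which had 20352. Reads of such pairs may be assigned or lost together, so these 2 low counts are uncertain as levels, which was not tested. The cells of cluster 4, 10.9% of all cells kept, held 71.3% of the UMIs. These cells were also deeper, at a median of 21561 UMIs per cell against 4285 to 11168 in the other clusters. The 2 shares are thus not on a like base. Clusters are those the authors deposited at resolution 0.1 and were made from the same cells' expression, so the levels by cluster are given as a description. The values are counts per 1000000 UMIs (CPM) of the summed counts of a library's cells, and in such sums fewer expressing cells and less mRNA per cell cannot be told apart.

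Cluster 4 held the highest summed level of the neutrophil precursor markers Elane, Mpo, Prtn3, Ctsg, Fcnb and Ms4a3, at a mean of 3938 CPM against at most 343 in any other cluster. There the clustered histone genes summed to 7252 ± 1478 CPM (SD, n = 6 libraries). Cluster 0, high in the secondary granule genes of immature neutrophils, had 550 ± 104 CPM, and clusters 1, 2 and 3, highest in mature neutrophil markers, had 842 ± 172, 710 ± 170 and 549 ± 149 CPM. Cluster 5, highest in monocyte markers, had 1876 ± 314 CPM, cluster 6, with B lineage markers, 4229 ± 612 CPM, and cluster 8, with hemoglobin genes, 5156 ± 2557 CPM from 274 cells. Cluster 7 had 841 ± 183 CPM, close to clusters 1 and 2 and within their spread. The level of each library of cluster 4 lay above each library of clusters 0 to 3, 5 and 7, whereas clusters 4, 6 and 8 overlapped.

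By class, cluster 4 held H2A at 3314 ± 900 CPM, H1 at 1843 ± 498, H4 at 1076 ± 293, H2B at 547 ± 135 and H3 at 471 ± 121 (n = 6 libraries for each). These are levels of 3' UMIs, which do not scale with length, and how far capture at poly(A) differs between the classes was not tested. In cluster 1 the order was another: H1 354 ± 103 CPM, H2B 281 ± 69.1, H2A 104 ± 35.6, H4 93.4 ± 17.7 and H3 10.0 ± 1.63. H3 had the lowest level in both clusters, while H2B was next to H1 in cluster 1 and below H4 in cluster 4. When each cell was thinned to 1000 UMIs, an H3 UMI was seen in 33.2% of cluster 4 cells and in 1.01% of cluster 3 cells (90.4% and 6.29% as counted). Of the thinned cluster 4 cells 88.3% ± 1.28 had a UMI of at least 1 of the genes, against 39.5% ± 7.74 in cluster 3 (99.8% and 90.9% as counted, at a median of 21561 and 7000 UMIs per cell).

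**Figure D1:**
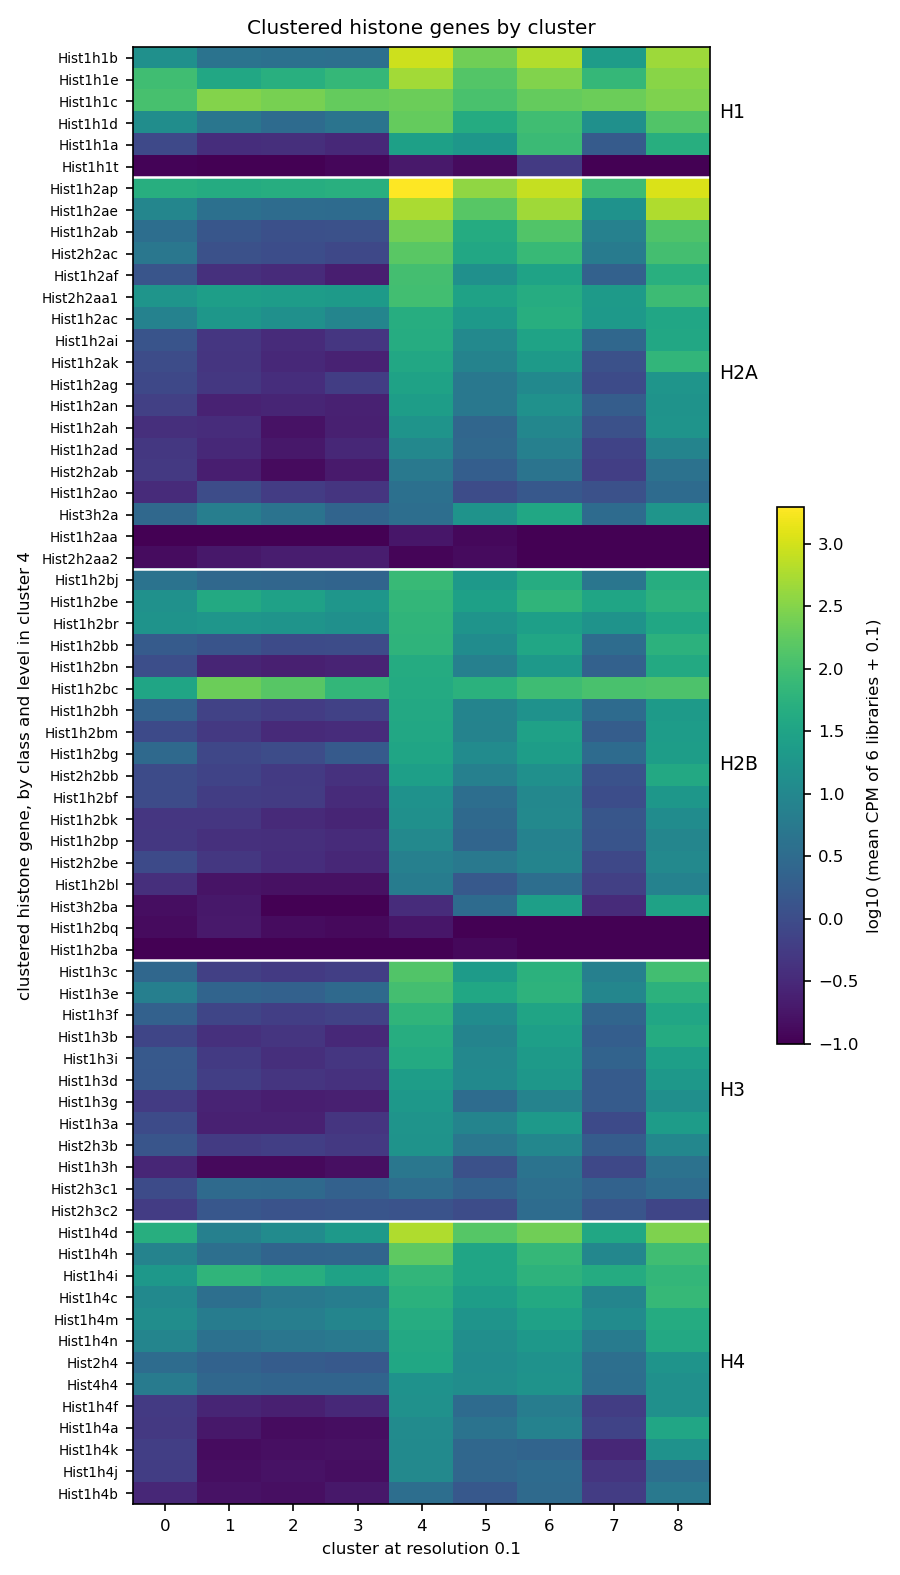
Mean level of each of the 67 clustered histone genes (y axis, grouped by class and ordered by level in cluster 4) in the 9 deposited clusters (x axis), with colour giving log10 of the mean CPM of 6 libraries plus 0.1. Column 4 is the brightest for most genes, columns 6 and 8 come next, and Hist1h1c and Hist1h2bc are bright in columns 1 and 2 as well.

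Among the H1 genes, Hist1h1b, for subtype H1.5, led in cluster 4. Its CPM was 1362, 1079 and 879 in femur replicates 1 to 3 and 869, 825 and 530 in mandible replicates 1 to 3. Every femur library lay above every mandible library, by a narrow margin for femur replicate 3. Hist1h1e, for H1.4, followed at 487 ± 114 CPM, then Hist1h1c, for H1.2, at 216 ± 60.5, Hist1h1d, for H1.3, at 189.5 ± 54 and Hist1h1a, for H1.1, at 27.3 ± 3.03 CPM.

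Among the H2A genes, Hist1h2ap stood at 1457, 2856 and 1929 CPM in the femur and 1693, 890.0 and 2863 CPM in the mandible libraries. The sites overlapped over nearly the whole range, unlike in Hist1h1b. Hist1h2ae had 555 ± 108 CPM, Hist1h2ab 237 ± 59.2, Hist2h2ac 155 ± 44.8 and Hist1h2af 100.1 ± 29.7 CPM. The named H2B genes were closer to each other: Hist1h2bj 76.4 ± 15.8, Hist1h2be 70.3 ± 19.8, Hist1h2br 63.6 ± 17.4, Hist1h2bb 62.2 ± 21.0 and Hist1h2bn 42.8 ± 11.3 CPM. The spreads of the first 4 between libraries overlapped. Whether they differ within each library was not tested.

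Among the H3 genes, Hist1h3c had 132 ± 45.9 CPM, Hist1h3e 102 ± 21.0, Hist1h3f 63.9 ± 17, Hist1h3b 46.3 ± 15.3 and Hist1h3i 42.6 ± 9.0 CPM. Among the H4 genes, Hist1h4d led with 802, 729 and 549.7 CPM in the femur and 651, 459.9 and 409 CPM in the mandible libraries. Femur replicate 3 lay below mandible replicate 1, so the sites overlapped. Hist1h4h had 170.2 ± 71.9 CPM, Hist1h4i 65.4 ± 11.5, Hist1h4c 55.2 ± 13.8 and Hist1h4m 45.6 ± 13.9 CPM.

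Hist3h2ba, an H2B gene on chromosome 11 chosen after its values were seen, went against the pattern of the class. It had 0.254 ± 0.0758 CPM in cluster 4, 0 UMIs in clusters 2 and 3, 26.4 ± 8.98 CPM in cluster 6 and 29.7 ± 36.2 CPM in cluster 8. In cluster 6 the 6 libraries ranged from 14.1 to 40.4 CPM, all above the 2.19 to 4.16 CPM of cluster 5.

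Clusters 1, 2 and 3, highest in mature neutrophil markers, held some histone mRNAs and not others. The 5 genes highest there, by the mean of the 3 clusters, were Hist1h1c at 251 ± 87.9 CPM, Hist1h2bc at 145 ± 45.9, Hist1h1e at 52.8 ± 9.62, Hist1h2ap at 47.3 ± 24.5 and Hist1h4i at 47.1 ± 12.1 CPM. Hist1h2bc, an H2B gene, stood at 342% of its cluster 4 level, and the ratio lay between 2.56 and 4.65 in the 6 libraries. Hist1h1c stood at 117% with ratios of 0.825 to 1.41, and Hist1h4i at 72.1% with ratios of 0.554 to 0.890. By contrast Hist1h2ap stood at 2.43% and Hist1h1b at 0.420% of their cluster 4 levels. These ratios are of CPM, a share of all UMIs, and not of amounts per cell. Cells of clusters 1, 2 and 3 held a median of 4591, 5757 and 7000 UMIs against 21561 in cluster 4, so per cell the ratios would be lower. In cluster 1 the level of Hist1h2bc was 192, 291 and 257 CPM in the femur and 232, 151 and 160.2 CPM in the mandible libraries, above the 31.2 to 55.7 CPM of cluster 4 in each library.

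Of the genes with at least 200 UMIs, 24 have an annotated transcript that runs 200 or more bases past the coding part, and 38 do not. By this ratio of CPM, which is not an amount per cell, the median gene of the first kind kept 10.1% of its cluster 4 level in clusters 1 to 3. Of the 24, 12 kept 10% or more. The median gene of the second kind kept 1.08%, and 4 of the 38 kept 10% or more: Hist2h2aa1 with 24.4%, Hist1h4m with 16.1%, Hist1h2ao with 15.2% and Hist1h4n with 12.2%. Within the first kind the range was wide, from 0.487% to 342%, and the long-ended Hist1h4d kept 2.20%. This comparison was chosen after the values were seen, and it carries no test. How far poly(A) capture sets the counts of each gene was not tested.

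**Figure D2:**
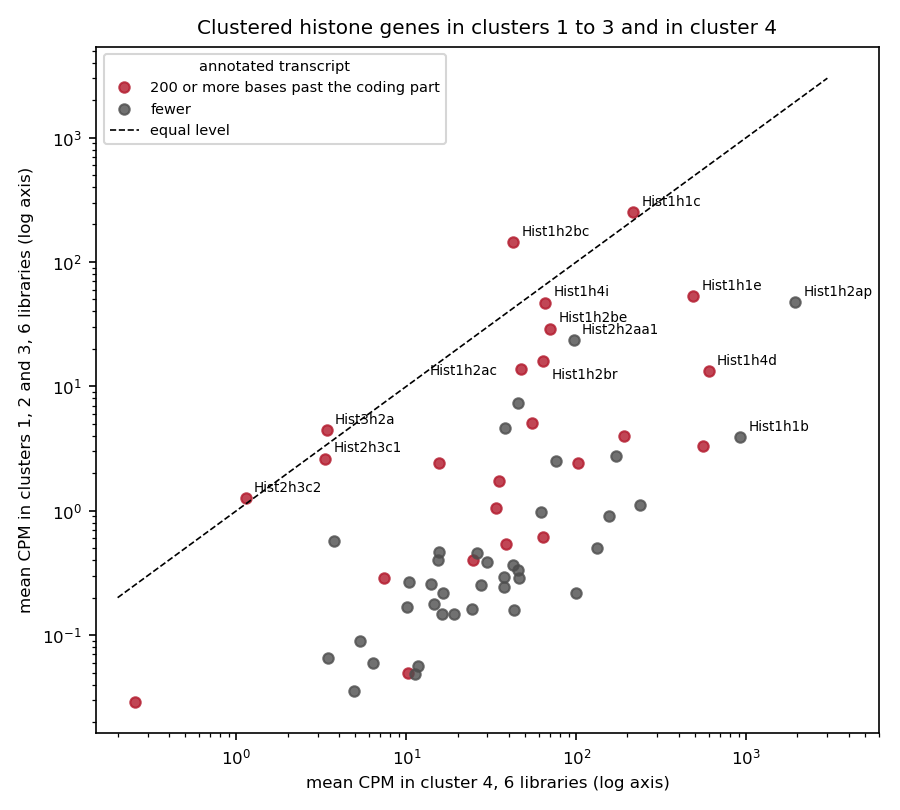
Level of 62 genes with at least 200 UMIs in clusters 1 to 3 (y axis, mean CPM of 6 libraries, log scale) against cluster 4 (x axis, mean CPM, log scale), with genes of long annotated ends in red and the others in grey. Most points lie far below the dashed line of equal level, while Hist1h2bc, Hist3h2a, Hist1h1c and Hist2h3c2 lie above it.

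The deposited table gives each cell a cell cycle phase, called by the authors from lists of S and G2M genes that hold no clustered histone gene. Cluster 4 held 88 cells called G1 (6 to 28 per library), 3107 called S and 4426 called G2M. Phase differences were tested on the counts of each library and phase with edgeR's quasi-likelihood test, with the library as a block and a Benjamini-Hochberg adjusted p under 0.05 as the call. The deposited scores were whole multiples of 1 step, as scores of unnormalised counts are, and when phase was called anew from depth-normalised values 83 of the 88 G1 cells and 1203 of the 3107 S cells became G2M. The contrasts with G1 in cluster 4 therefore rest on few cells of a class that mostly did not survive the second call.

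In cluster 4, 38 of the 60 genes tested were higher in S than in G1, beside 15.3% of all 10858 genes tested. None was lower, at an unadjusted p under 0.05 or by DESeq2 either, where 10.4% of all genes were lower. The median gene differed by 0.79 on the log2 scale, against 0.04 for all genes. Of the 60, 19 passed the filter in the G1 sums alone, and 13 of these 19 were higher in S. The other 41 passed only with the S and G2M sums, where histone levels were higher, so their direction is no support. From S to G2M, 46 were higher, beside 22.9% of all genes, and 4 were lower, beside 25.4%. From G1 to G2M, 51 were higher (11.0% of all genes) and 0 lower (6.81% of all genes), with 0 lower also at an unadjusted p under 0.05 and by DESeq2. Of the 19 that passed in the G1 sums 18 were higher. Of the other 41, whose entry favours that direction, 33 were higher. So the summed histone mRNA was highest in the cells called G2M: 2320 ± 848 CPM in G1, 6070 ± 993 in S and 8120 ± 1748 in G2M (n = 6).

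By class, the calls from S to G2M were these, beside 22.9% of all genes higher and 25.4% lower, and differences between the classes were not tested. All 15 tested H2B genes and all 16 H2A genes had positive differences, and 14 of each were called higher. Of the 11 H3 genes 9 were higher and 1 lower, of the 5 H1 genes 3 were higher and 1 lower, and of the 13 H4 genes 6 were higher and 2 lower. Hist1h1a, Hist1h3a and Hist1h4a are neighbours on chromosome 13. The 4 genes that fell were Hist1h1a (log2 difference -1.11, SE 0.0784, adjusted p = 1.55e-12), Hist1h3a (-1.09), Hist1h4a (-0.65) and Hist1h4i (-0.25, adjusted p = 1.16e-04). Hist1h1a had 53.0, 45 and 38.3 CPM in S cells of the femur and 38.3, 36.4 and 35.6 CPM in those of the mandible. In G2M cells it had 20.6, 21.3 and 21.2 CPM and 16.9, 18.2 and 15.6 CPM. The S and G2M libraries did not overlap.

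Hist1h4d moved the other way, from 375 ± 74.6 CPM in S to 751 ± 181 in G2M (log2 difference 0.97, SE 0.107, adjusted p = 1.57e-08). Hist2h2ab, an H2A gene chosen after its values were seen, had the highest difference, 1.35 (SE 0.149). Hist1h1b did not pass the test between S and G2M (-0.07, SE 0.130, adjusted p = 0.708), and with the phases called from normalised values it was higher in G2M by 0.20 and passed the test. From G1 to S it was higher by 2.07 (SE 0.176, adjusted p = 7.46e-10). Hist1h1c and Hist1h2bc, high in clusters 1 to 3, did not pass that step (-0.05 and 0.01, adjusted p = 0.794 and 0.987).

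**Figure D3:**
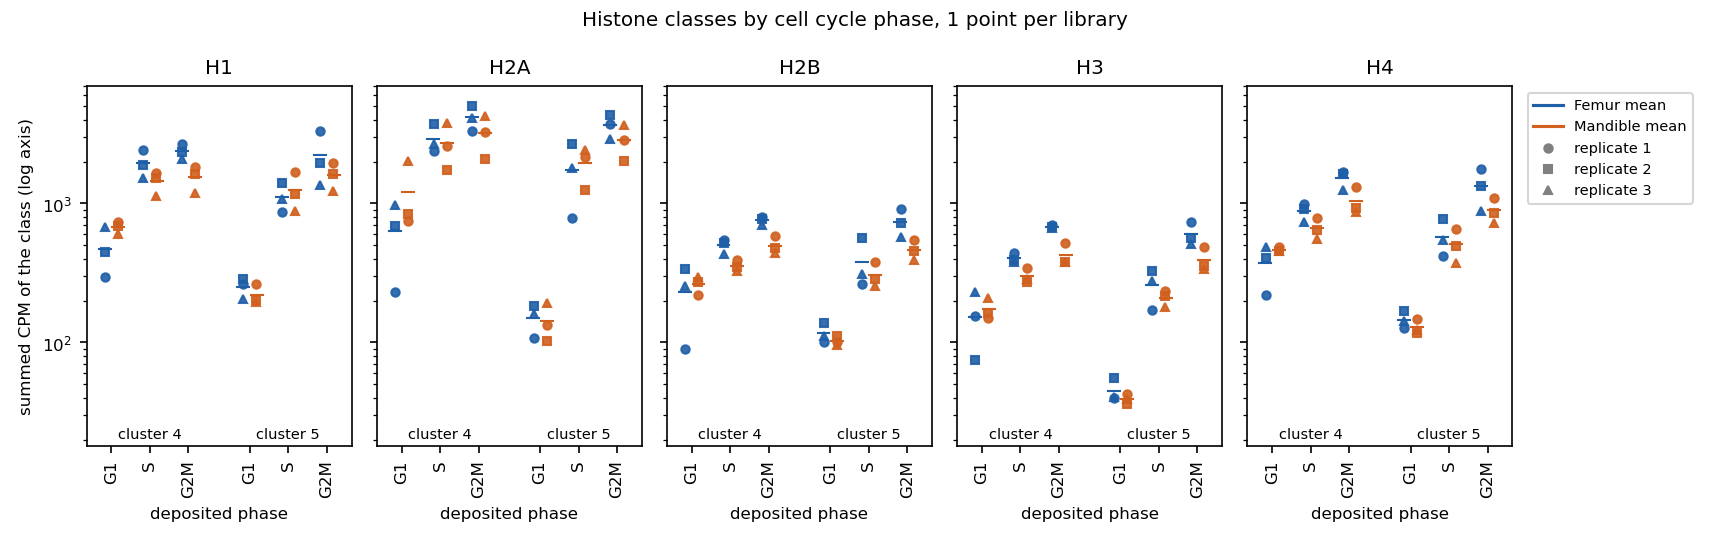
Summed level of each histone class (y axis, CPM on a log scale) by deposited phase in clusters 4 and 5 (x axis), 1 point per library, with short lines at the mean of 3 libraries per site. From G1 to G2M the points rise in each class, more steeply in cluster 5, and in G2M cells the mandible means lie below the femur means.

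Cluster 5 held 6080 G1, 515 S and 759 G2M cells, so its G1 class was well filled. Immature neutrophil markers were also seen in its G2M cells, with values given below. Whether its phases differ in cell type as well was not tested. There 55 of 59 genes tested were higher in S than in G1, beside 29.0% of 10748 genes, and Hist3h2a alone was lower, beside 28.2%. The filter let 46 of the 59 pass in the G1 sums alone, and of these 42 were higher and 1 lower. The other 13, which passed only with the S and G2M sums, were all higher, which their entry favours. From S to G2M 38 were higher (13.8% of all genes) and 0 lower (13.3%), with 0 lower also at an unadjusted p under 0.05 and by DESeq2. From G1 to G2M 58 were higher (28.8%) and 0 lower (28.6%), with 1 lower, Hist3h2a, at an unadjusted p under 0.05 and 1 by DESeq2 (29.7% of all genes lower). Of the 46 that passed in the G1 sums 45 were higher, and of the 13 favoured by their entry all were. The median differences were 2.66, 0.71 and 3.52 on the log2 scale. The summed mRNA was 673 ± 86.9 CPM in G1, 4150 ± 1168 in S and 7374 ± 1944 in G2M cells.

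Hist1h3b, an H3 gene, was 1 of the 13 that passed the filter only with the S and G2M sums, so its values are given as a description. Its G1 cells had 0.218, 0.431 and 1.13 CPM in the femur and 0, 0.240 and 0.269 CPM in the mandible libraries. Its S cells had 17.7, 31.9 and 19.4 CPM and 14.5, 15.9 and 23.3 CPM, higher in each library. Of the genes that also passed the filter in G1 cells, Hist1h1b was higher in S by 4.72 on the log2 scale (SE 0.210) and Hist1h2ap by 4.35 (SE 0.195). Hist1h1c and Hist1h2bc again did not pass the test (0.21 and 0.02, adjusted p = 0.151 and 0.946), nor did Hist3h2ba (0.39, adjusted p = 0.451). Hist3h2a, whose annotated transcript runs 1703 bases past the coding part, fell from 16.9 ± 3.29 CPM in G1 to 7.67 ± 3.46 in S (-1.24, SE 0.237, adjusted p = 2.67e-04). Among cells thinned to 1000 UMIs, a Hist1h1b UMI was seen in 2.71% of G1, 31.1% of S and 39.6% of G2M cells of cluster 5 (15.8%, 58.8% and 71.4% as counted). In clusters 1, 2 and 3, the background, it was seen in 0.404%, 0.527% and 0.375% of thinned cells (2.03%, 2.42% and 2.50% as counted).

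A list of 27 genes that supply histones or make their mRNAs (chaperones, hairpin processing, histone acetylation and their regulators) gave the setting. The list holds 5 genes from which phase was called. In cluster 4, 18 of 27 were higher in S than in G1, beside 15.3% of all genes, and 0 lower by edgeR (0 lower at an unadjusted p under 0.05). From S to G2M 18 fell and 3 rose, beside 25.4% and 22.9% of all genes. Without the 5 genes, 13 of 22 were higher in S than in G1, and from S to G2M 13 fell and 3 rose. The 3 that rose were Zfp473, Srrt and Cpsf3. Slbp, the hairpin binder, fell from 202 ± 17.3 to 111 ± 7.15 CPM (-0.88, SE 0.0538) and Nasp, a histone chaperone, from 143 ± 26.7 to 64.4 ± 6.43 CPM (-1.15, SE 0.0642), but both are among the genes from which phase was called. Asf1b, a chaperone of H3 and H4 outside those lists, fell by 0.13 on the log2 scale, and Rbbp4 and Rbbp7, which bind H4, fell by 0.20 and 0.28. In cluster 5, 22 of 26 were higher in S than in G1, beside 29.0% of all genes, and Lsm10 alone was lower. From S to G2M 9 fell, beside 13.3% of all genes, and 0 rose by edgeR (2 higher at an unadjusted p under 0.05). Without the 5 genes these counts were 17 of 21 higher and 4 fallen.

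The variant histones were 11 genes outside the arrays. In cluster 4, 4 of the 9 tested were higher in S than in G1 and 2 lower, beside 15.3% and 10.4% of all genes. From S to G2M 4 were higher and 2 lower, beside 22.9% and 25.4% of all genes, so that the share that fell was near that of all genes. Without Cenpa, from which phase was called, 4 of 8 were higher and 1 lower in S than in G1, and 3 were higher and 2 lower in G2M than in S. H2afx, for H2A.X, rose from 156 ± 29.4 CPM in S to 398 ± 35.1 in G2M (1.35, SE 0.0959), and H2afv rose by 0.50. H2afz, for H2A.Z, stood at 2015 ± 91.3 and 2210 ± 60.1 CPM, which did not pass the test. H3f3a and H3f3b, for H3.3, lay at 1437 ± 64.7 and 1331 ± 105 CPM in cluster 4 and at 1763 ± 108 and 1659 ± 234 CPM in cluster 1. Each of these single genes thus had more UMIs there than the 12 clustered H3 genes together, on a 3' count that does not scale with length. The assay primed cDNA at poly(A), which variant histone mRNAs carry and most clustered histone mRNAs lack. The comparison is therefore of captured UMIs and not of mRNA amounts. In cluster 5, 5 of 9 variant genes were higher in S than in G1 and 0 lower, beside 29.0% and 28.2% of all genes. From S to G2M 7 were higher and 0 lower, beside 13.8% and 13.3%. At an unadjusted p under 0.05 0 were lower in either step. Without Cenpa 4 and 6 of 8 were higher.

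The second question of the design was whether femur- and mandibular-derived cells differed. No clustered histone gene passed edgeR's test between the sites in any cluster, in any phase of clusters 4 and 5 or over all cells. In cluster 4 each of the 61 genes tested was lower in the mandible, by a median of 0.56 on the log2 scale. The median of all 12265 genes was 0.00, near which TMM scaling holds it. The 61 genes were read in the same 6 libraries and may move together, so their number does not add replicates. Of the 61, 54 had an unadjusted p under 0.05, beside 6.81% of all genes lower at that p, and 45 lay below every femur library, beside 10.1% of all genes. The lowest adjusted p was 0.205, and 0.0245% of all genes were called. DESeq2 called 29 of the 61 lower, beside 0.783% of all genes. The summed level was 8417, 9202 and 7486 CPM in the femur and 6800, 4997 and 6609 CPM in the mandible libraries, with no overlap.

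The direction was shared by the classes: the median log2 difference was -0.52 for 5 H1, -0.50 for 16 H2A, -0.59 for 15 H2B, -0.63 for 12 H3 and -0.63 for 13 H4 genes. Hist1h2bc had 52.9, 48.6 and 55.7 CPM in the femur and 33.6, 32.2 and 31.2 CPM in the mandible libraries of cluster 4 (-0.67, SE 0.105, adjusted p = 0.205). Its sites did not overlap. In the other clusters its difference lay between -0.72 in cluster 3 and 1.26 in cluster 8, with an adjusted p of 0.268 or more. Hist1h2bn had 56.7, 50.7 and 50.4 CPM against 36.7, 33.5 and 28.7 CPM (-0.64, SE 0.117, adjusted p = 0.205). Hist1h2ap, with overlapping sites, differed by -0.19 (SE 0.363, adjusted p = 0.849). Its difference turned positive, to 0.10 and 0.12, when femur replicate 2 or mandible replicate 2 was left out.

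The calls depended on 1 library and on the filter. Without mandible replicate 1, 16 of 61 genes passed the test in cluster 4 (0.214% of all genes lower), and with no filter on low counts 47 of 66 did (1.14% of all genes lower). With the library number as a block, a fit that also left out femur replicate 1 and mandible replicate 3, 38 genes were called in cluster 4 (1.77% of all genes lower) and 45 in its G2M cells (1.41%). The block and the smaller set of libraries were not run apart, and a block on the title number over all 6 libraries called 0 in cluster 4. The other 5 leave-one-out fits called 0, with median differences between -0.56 and -0.46.

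Of the phase shares of cluster 4 cells, that of the few G1 cells separated the sites. Femur libraries held 0.660 to 0.937% of G1 cells and mandible libraries 1.32 to 2.23%, with means of 0.767% ± 0.149 and 1.71% ± 0.465 (SD, n = 3 each) and no overlap (exact permutation test, two-sided, p = 0.1, adjusted over 3 shares 0.3). The shares of S and G2M cells overlapped. S cells were 39.9% ± 4.06 of the femur and 40.9% ± 3.09 of the mandible cells (exact permutation test, two-sided, p = 0.7, adjusted 0.7), and G2M cells 59.3% ± 4.11 and 57.4% ± 3.06 (exact p = 0.5, adjusted 0.7). With 3 against 3 libraries the smallest p is 0.1. In S cells all 60 genes tested were lower, with a median of -0.42. An unadjusted p under 0.05 was reached by 37 (5.91% of all genes lower), 0 were called by edgeR (0.00926% of all genes) and 5 by DESeq2 (0.183% of all genes lower).

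In G2M cells of cluster 4 all 61 genes tested were lower, with a median of -0.61. An unadjusted p under 0.05 was reached by 56 (6.32% of all genes lower), and 52 lay below every femur library (9.08% of all genes). None was called by edgeR (0.0179% of all genes), whereas DESeq2 called 35 (0.7% of all genes lower). Without mandible replicate 1 edgeR called 30 (0.462% of all genes lower). In the few G1 cells 13 of 19 genes were higher in the mandible, with 0 called (0.0% of all genes), 4 at an unadjusted p under 0.05, all higher (3.18% of all genes higher and 4.11% lower at that p), and 0 by DESeq2, which left 15 of the 19 without an adjusted p. The step from G1 to S, computed per library and compared between sites with limma, differed for 0 of 54 genes (0.0% of all 8867 genes), with 0 also at an unadjusted p under 0.05 (3.45% of all genes lower). Its sign was negative, a smaller step in the mandible, for 50 of the 54, with a median of -1.64 on the log2 scale against -0.36 for all genes. Without femur replicate 3 it was called for 8, all lower, beside 6.41% of all genes. Only 19 of the clustered histone genes passed the filter in the G1 sums alone. The others had low counts in G1 and entered with the S sums, so their direction is no support for a smaller step.

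Cluster 5 as a whole showed no common direction: 39 of 62 genes were higher in the mandible, with a median of 0.08. None was called by edgeR (0.0% of all genes) or DESeq2, with 1 higher and 2 lower at an unadjusted p under 0.05 (3.25% of all genes higher and 3.86% lower). G2M cells made up 6.60% ± 2.94 of cluster 5 in femur libraries against 13.8% ± 6.35 in mandible libraries (exact permutation test, two-sided, p = 0.2), with overlap. In G2M cells of cluster 5, 56 of 58 genes tested were lower, with a median of -0.62. Of these 34 had an unadjusted p under 0.05 (5.68% of all genes lower), and 17 lay below every femur library (4.5% of all genes). None was called by edgeR (0.0102% of all genes), whereas DESeq2 called 6 (0.431% of all genes lower) and left 5 without an adjusted p.

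Hist1h2br in these cells differed by -1.20 (SE 0.192, adjusted p = 0.166) and Hist1h3b by -1.08 (SE 0.228, adjusted p = 0.196), from 78.1, 78.9 and 48.1 CPM in the femur to 44.4, 24.9 and 34.4 CPM in the mandible libraries. In S cells 40 of 48 were lower, with a median of -0.33, 6 at an unadjusted p under 0.05 (4.52%) and 0 called (0.0%, and 0 by DESeq2, which left 11 without an adjusted p). In G1 cells 34 of 46 were lower, with a median of -0.21, 0 at an unadjusted p under 0.05 (3.23%) and 0 called (0.00779%, and 0 by DESeq2). The split by phase was added after the sums of cluster 5 were seen.

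**Figure D4:**
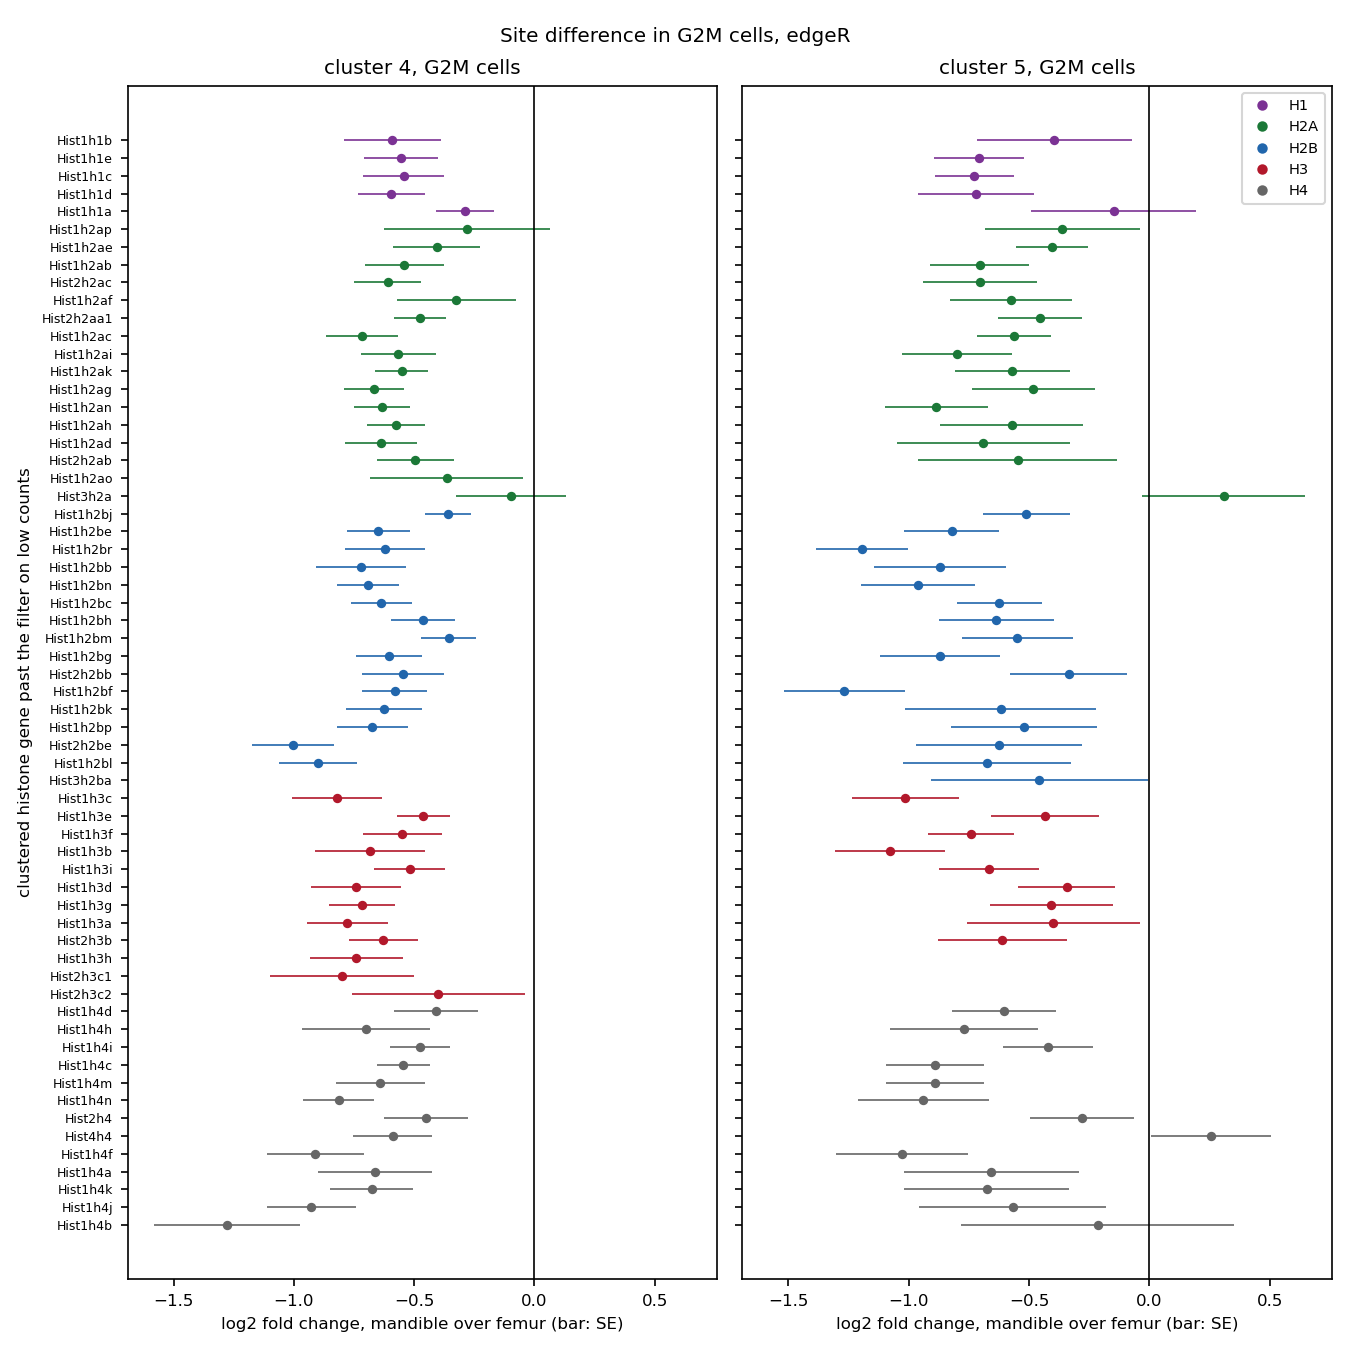
Log2 fold change, mandible over femur, of each gene past the filter (y axis) in G2M cells of cluster 4 (left) and cluster 5 (right), with bars of 1 standard error and colours for the classes. In cluster 4 all 61 points lie left of the zero line, and in cluster 5 56 of 58 do, the other two being Hist3h2a and Hist4h4.

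Other values in these cells are given by site, and their part in the histone difference was not tested. The ranges of the precursor and erythroid markers overlapped between the sites, and the other ranges did not. In cluster 4 the summed S phase list (43 of 44 genes in the files) was 2548 to 2943 CPM in the femur and 2126 to 2458 CPM in the mandible libraries, and within the G2M cells 1816 to 2106 and 1557 to 1749 CPM. The list of histone supply genes was 1199 to 1339 and 1055 to 1162 CPM, although its median log2 difference was -0.07 and 0 of 27 were called by edgeR (4 at an unadjusted p under 0.05, all lower, beside 6.81% of all genes lower). The precursor markers, all 6 in the files, were 3103 to 3806 and 3545 to 4988 CPM. Tooth, bone and stromal markers, 8 of 8 in the files, were low and apart, 2.90 to 3.81 and 13.5 to 17.9 CPM, and erythroid markers, 8 of 8, were 12.8 to 34.4 and 19.0 to 197 CPM. In G2M cells of cluster 5 the immature neutrophil markers were 27010 to 44280 CPM in the femur and 12950 to 22270 CPM in the mandible libraries, and the monocyte markers 2899 to 3701 and 4203 to 5534 CPM. Of 11 variant histones in cluster 4, 10 had a positive difference (mandible over femur), with a median of 0.19. None was called by edgeR, and 1 of the 11 was higher at an unadjusted p under 0.05, beside 6.21% of all genes.

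The other clusters and the sums over all cells gave these values. Over all cells 59 of 62 genes were lower in the mandible, with a median of -0.48, 32 at an unadjusted p under 0.05 (4.68% of all genes lower), 0 called by edgeR (0.0%) and 4 by DESeq2 (0.794% of all genes lower). Hist3h2ba was the only one of the 62 that was higher at that p, beside 4.69% of all genes (1.13, SE 0.464, adjusted p = 0.499). Cluster 6, where this gene was high, held 39, 158 and 60 of 10255, 11611 and 22797 cells in the femur libraries. In the mandible libraries it held 100, 394 and 258 of 8598, 8752 and 7763 cells. The part of this cell mix in the difference was not tested. In cluster 0, 54 of 57 were lower, with a median of -0.54, 8 at that p (4.24%) and 0 called (0.0163%, 1 by DESeq2 beside 0.269% of all genes lower). In clusters 1 and 2, 15 of 28 and 16 of 26 were lower, with 0 and 3 lower at that p (6.54% and 6.4%) and 0 called (0.0842% and 0.0416%, 0 by DESeq2). In cluster 1, 1 gene, Hist1h3e, was higher at that p (7.04% of all genes higher). In cluster 3, 21 of 26 were lower, with a median of -0.40, 6 at that p (2.71%) and 0 called (0.0108%, 0 by DESeq2). In clusters 6 and 7, 34 of 43 and 10 of 14 were lower, with 6 and 0 at that p (2.51% and 3.05%) and 0 called (0.0% and 0.0842%, 0 by DESeq2). In cluster 8, 17 of 19 were higher, with a median of 0.46, 2 higher and 0 lower at that p (0.629% of all genes higher and 0.472% lower) and 0 called (0.0%, 0 by DESeq2), from 11 to 160 cells per library.

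Hist1h2ap took a different share of the histone mRNA in each library. In cluster 4 it made up 17.3%, 31.0% and 25.8% of the UMIs of the 67 genes in the femur and 24.9%, 17.8% and 43.3% in the mandible libraries. Mandible replicate 3 was the highest, and it had the lowest H1 share, 17.5% against 23.5% to 31.2% in the others. In cluster 1 mandible replicate 3 again stood apart with 11.7% against 2.07% to 5.36%. The same library was the highest in each of the 9 clusters. The paralogs of H2A are near-identical in their coding parts, so reads of Hist1h2ap and of its neighbours may be assigned or lost together, and its values are uncertain in that respect.

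**Figure D5:**
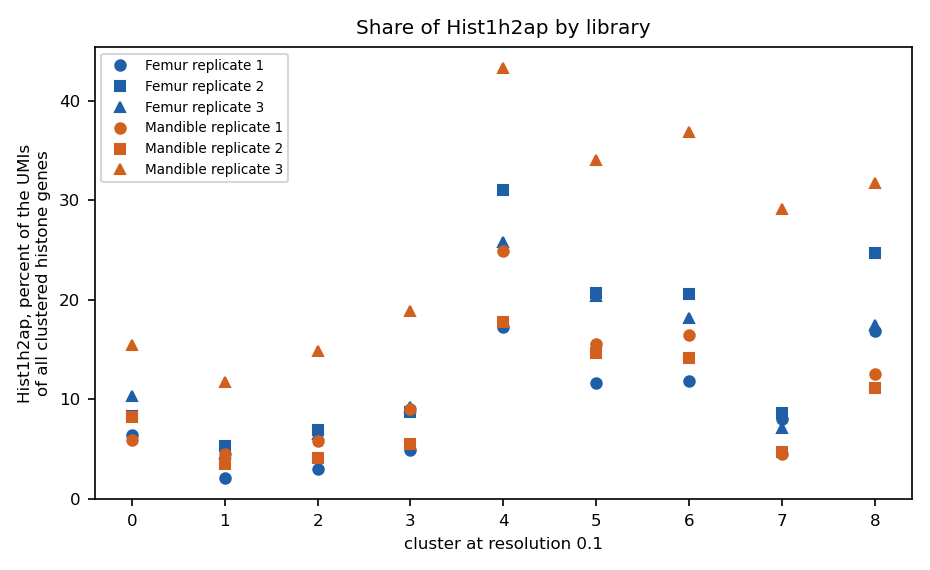
Hist1h2ap as a percent of the UMIs of all 67 clustered histone genes (y axis) in the 9 deposited clusters (x axis), 1 point per library, blue for femur and orange for mandible. The orange triangle, mandible replicate 3, is the highest point in each cluster, at 43.3% in cluster 4.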

How the data were processed

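The 6 droplet libraries of CD11b-selected marrow cells, 3 femur and 3 mandible, were compared. The UMI counts were deposited by the authors as raw matrices per library, made with Cell Ranger against mm10 (version 7.0.1 per the processing notes, 7.1.0 per the file headers), and counting strand is not given in the sources used here. The deposited cell table, made with Seurat in R 4.1.0, also holds the library, cluster and phase names (other), the mitochondrial percent and the S and G2M scores per cell, as computed by the authors. Cells with 600 to 6000 genes and at most 20% mitochondrial UMIs were kept by the authors, which removes the deepest cells, so cluster 4 may lack some. The authors' marker table of cluster comparisons was not used. No doublet caller was run. Library pairs shared 15 to 70 cell barcodes, at most 0.651% of the smaller library.

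Raw counts were summed per library, cluster and phase, and for CPM each sum was divided by the total UMIs of the same cells. Site differences were fitted over all genes with edgeR 4.0.16 (R 4.3.3, filterByExpr, TMM, quasi-likelihood test) without a block, and phase differences with the library as a block. The site by phase difference was fitted with limma 3.58.1 on per-library differences of log2 CPM (prior count 2). Benjamini-Hochberg adjustment at 0.05 ran over all genes tested. DESeq2 1.42.0, RLE size factors, no filter, each library left out, both replicate blocks and phases called from normalised scores were the alternatives. Figures were drawn with matplotlib 3.10.9. The scripts were tested on simulated data. Whether numbers in the labels pair samples is not stated. By title number the correlations of deviations took both signs, from -0.40 to 0.18 over all cells and clusters 0 to 7, so no pairing was used. By library number, shared by 2 pairs of libraries, they ran from 0.0031 to 0.50, positive in both pairs, which left a pairing undecided. In cluster 8, with 11 to 160 cells per library, the ranges widened to 0.61 and -0.63.

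The members and lists were chosen with earlier results of these data known. Genes are named as follows: up to 5 per class by cluster 4 level, any gene past the test between sites (0), the 5 highest in clusters 1 to 3, and up to 5 per list by cluster 4 level. Others are said to be chosen after their values were seen or are the few behind a count. Replicates are separate libraries. The p-values between sites measure the spread between libraries. Those between phases, with the library as a block, measure how the phase differences within a library vary from library to library. Intervals of counting were not used, since no value rests on a single library.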

Additional observations from a re-analysis of the deposited data

How the results depend on the processing

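The sites' common direction held under each alternative that was run in cluster 4: between 59 and 61 of 61 genes tested stayed lower in the mandible, and 64 of 66 with no filter on low counts. The number of genes called did not hold. DESeq2 called 29 genes in cluster 4, 5 in its S and 35 in its G2M cells, 6 in G2M cells of cluster 5, 4 over all cells and 1 in cluster 0. With no filter on low counts 47 genes were called lower in cluster 4, 17 in its S and 53 in its G2M cells (1.14%, 1.12% and 1.4% of all genes), and 1, 1, 3 and 3 in clusters 0 to 3 (0.229%, 1.36%, 1.4% and 0.49%), so that the 1 of 64 in cluster 1 was near its share. In G1 cells of cluster 4, 1 gene was called higher (0.09% of all genes). With 1 library left out, the count ran from 0 to 16 in cluster 4, from 0 to 1 in its G1 cells (1 higher without femur replicate 3, beside 0.458% of all genes), from 0 to 30 in its G2M cells and from 0 to 8 for the site by phase difference. The causes were not tested.

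For the replicate block, the title numbers did not deviate together, and for the library numbers, with 2 pairs, the pairing was undecided. A block on the title number called 1 gene in G2M cells of cluster 4 (0.0179% of all genes lower) and changed no other count. A block on the library number, with 4 libraries, so that 2 choices changed, called 38 genes in cluster 4, 6 in its S (0.593% of all genes) and 45 in its G2M cells, 8, 2, 7 (1 of them higher) and 10 in clusters 0 to 3 and 2 in cluster 6, where 2.01%, 5.36%, 5.25%, 2.44% and 0.8% of all genes were called lower. It turned Hist1h2af and Hist3h2a in cluster 4 to 0.12 and 0.0004. With no replicate block on the library in the phase fits, 24 genes rose from G1 to S in cluster 4 (13.9% of all genes) and 25 from S to G2M in cluster 5 (8.78%), and Hist1h1c in the first step was 0.0451.

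From G1 to G2M in cluster 5, 1 gene was lower with DESeq2, with RLE size factors, with no filter and with phases from normalised scores. In these fits 29.7%, 30.3%, 16.6% and 25.1% of all genes were lower. With 1 library left out it was 0 to 1 (1 without mandible replicate 2, beside 26.3% of all genes). The S share difference (mandible minus femur, percentage points) ran from -1.32 to 2.67 with 1 library left out and that of G2M from -3.68 to 0.409. Shares of cluster 4 cells with a UMI, not thinned, were 97.2% for H1, 97.1% for H2A, 94.5% for H2B, 90.4% for H3, 96.7% for H4 and 99.8% for any. Values near 0 changed sign with 1 library left out: Hist1h2ap between the sites in cluster 4 (-0.63 to 0.12), H2afx (-0.28 to 0.0388), H3f3a (-0.0535 to 0.0619), Hist1h1c (-0.11 to 0.0736) and Hist1h2bc (-0.20 to 0.15) from G1 to S in cluster 4, Hist1h2bc from G1 to G2M there (-0.0586 to 0.29), and in cluster 5 H3f3b (-0.0321 to 0.0265) and Hist1h2bc (-0.15 to 0.11) from G1 to S and Hist1h1a (-0.30 to 0.0713) and Hist1h3a (-0.16 to 0.10) from S to G2M. DESeq2 gave -0.0765 for Hist1h2bc from G1 to S in cluster 4 and -0.0234 for Hist1h3a from S to G2M in cluster 5, where RLE size factors gave -0.0195. With no filter Hist1h2bc was -0.0312 from G1 to S in cluster 5. Phases from normalised scores gave 0.20 for Hist1h1b from S to G2M in cluster 4, and -0.0116 for Hist1h1c and -0.0044 for Hist1h2bc from G1 to S in cluster 5. The number of G1 cells in cluster 4, 6 to 28 per library, limits their sums, where 19 genes passed the filter, although their median depth was 27514 UMIs per cell.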
